A study of Mus musculus with 16 samples.

Results

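Acetate-treated mouse Th17 cells labelled as knockouts of pyruvate dehydrogenase (PDH) were compared with untreated wild-type Th17 cells, to ask how far the transcriptome of the treated knockout stood from the untreated wild-type state. The comparison was chosen by genotype and treatment labels alone. It held 4 libraries of the treated knockout and 4 of the untreated wild type, 8 of the 16 RNA-seq libraries of the series.

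The wild type (WT) carried loxP-flanked PDH alleles without Cre (PDHfl/fl), and the knockout (KO) carried the same alleles with Cre under the CD4 promoter (PDHfl/fl CD4 Cre+), which is active from thymic T cell development on. The sample titles spell the allele PHD, whereas the culture protocol and the series title spell it PDH, and the labels do not name the loxP-flanked subunit. Naive CD4+ T cells from spleen and lymph nodes were cultured for 3 days with plate-bound anti-CD3 (5 µg/mL), anti-CD28 (1 µg/mL), IL-6 (30 ng/mL), TGFβ (2 ng/mL) and anti-IFNγ (5 µg/mL), and the treated cells also received 10 mM sodium acetate. The other 8 libraries were the untreated knockout and the acetate-treated wild type, 4 each. No Cre-only control without loxP-flanked alleles and no sodium control without acetate was among the 16 libraries. The labels do not say whether the 4 replicates of a group came from separate mice or cultures, so the p-values measure only the spread between these libraries, which may be technical.

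Pyruvate dehydrogenase is the mitochondrial complex that turns pyruvate into acetyl-CoA, which enters the TCA cycle as citrate. Citrate exported to the cytosol and nucleus gives back acetyl-CoA for lipid synthesis and for acetylation of histones. Acetate reaches the same acetyl-CoA pool by another route, through the acyl-CoA synthetases Acss1 and Acss2, without passing through pyruvate dehydrogenase. Th17 cells are helper T cells driven by the transcription factor RORγt that secrete IL-17A, IL-17F, IL-21 and IL-22 and defend mucosal surfaces.

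The 8 libraries compared held 26696170 to 33621657 estimated counts over 15571 genes, and all 16 held 24571177 to 33723470. Levels are given as CPM, counts-per-million values on a library size scaled by TMM (trimmed mean of M-values), and changes as log2 fold changes of the treated knockout over the untreated wild type. One identifier without a gene name accounted for 0.267% to 9.14% of the counts per library and passed 3% in 4 libraries, of which WT untreated 1 (5.89%) and KO acetate 2 (8.0%) are in this comparison. T cell markers were high in both groups: the summed level of Cd3e, Cd3d, Cd3g, Cd4, Lck, Cd28 and Cd5 was 2629 to 2716 CPM in the untreated wild type and 2259 to 2381 CPM in the treated knockout. The 5 B cell markers stayed at or under 2.69 CPM in every library, and of 5 NK cell markers only Klrd1 was tested, at most 3.58 CPM. Of 8 myeloid markers 4 were tested; Cst3, which T cells also express, reached 50.3 CPM, and Lyz2, Itgam and Fcer1g stayed at or under 1.90 CPM.

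After a filter on low counts, 14985 genes were tested with edgeR, with all 16 libraries in one fit. In the treated knockout 3954 genes (26.4%) differed from the untreated wild type at an adjusted p under 0.05, 1935 higher (12.9%) and 2019 lower (13.5%). Most differences were small. The median absolute log2 fold change over all genes tested was 0.21, and 760 of the called genes (5.07%) differed more than 2-fold, 632 higher (4.22%) and 128 lower (0.854%). A test for a change larger than 1.5-fold (edgeR glmTreat) called 302 genes (2.02%), 258 higher (1.72%) and 44 lower (0.294%). Conversely, the 95% interval of the fold change lay wholly within 1.5-fold in either direction for 8643 genes (57.7%). The split between higher and lower depended on the scaling, since with library totals and no TMM 1911 genes were higher and 1254 lower, 60.4% higher against 48.9%. Leaving out the 4 libraries with over 3% of counts in the unnamed gene lowered the count past 1.5-fold to 149, and leaving out WT untreated 1 alone lowered it to 183.

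**Figure D1:**
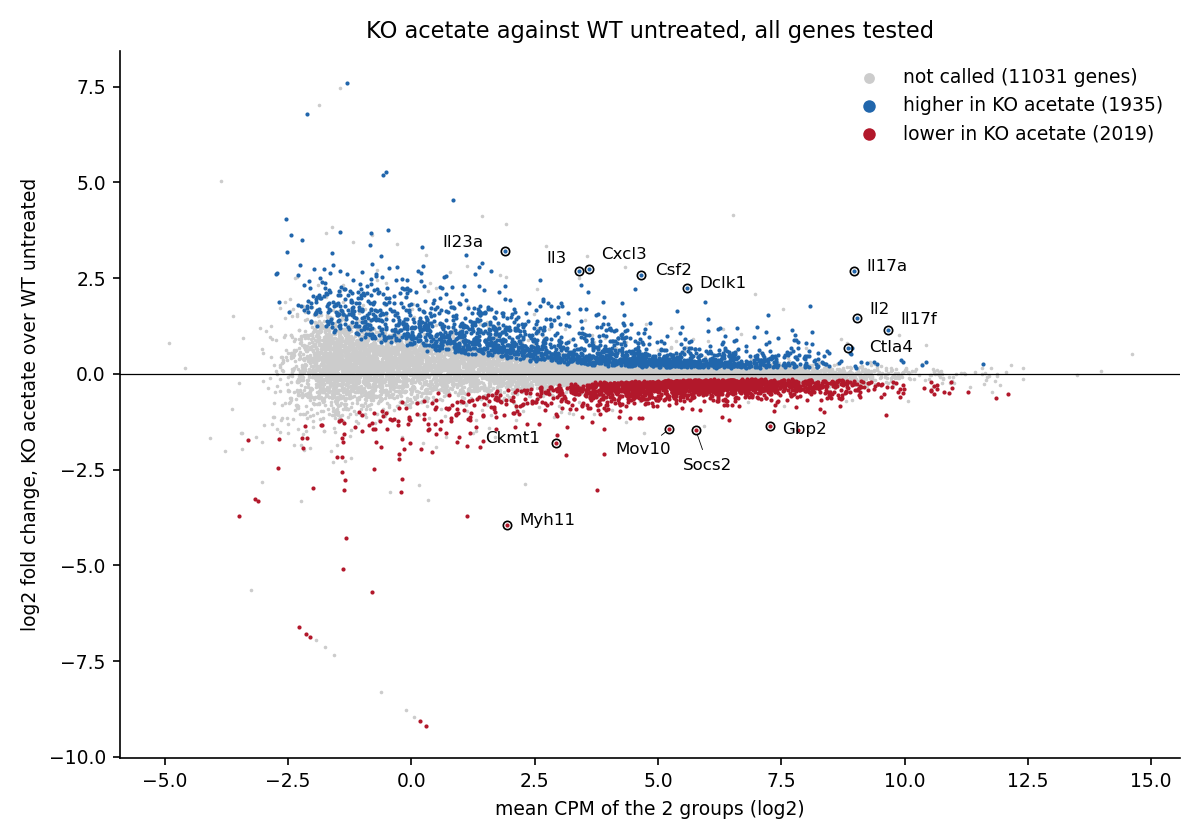
Log2 fold change of the treated knockout over the untreated wild type (y axis) against the mean CPM of the 2 groups on a log2 axis (x axis) for the 14985 genes tested. Blue points are the 1935 genes called higher, red points the 2019 called lower and grey points the others, and some genes named in the text are circled. The large rises are mostly genes of low to medium level, with Il17a and Il2 as rises at high level.

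The direction of the calls went with the level of the gene. Of the 690 genes called among those at 100 CPM and over, 523 were lower in the treated knockout and 167 higher. Between 1 and 10 CPM the split was the other way, with 705 higher and 185 lower. With library totals and no TMM these splits were 318 lower and 172 higher at 100 CPM and over, and 692 higher and 138 lower between 1 and 10 CPM. The abundant genes that were lower included glycolytic enzymes, cell cycle genes and T cell receptor components, and the less abundant genes that were higher included cytokines and cytotoxic effectors.

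Distance over all genes was taken as the root mean square difference in log2 CPM between 2 libraries. Pairs of a treated knockout and an untreated wild-type library were 0.735 ± 0.068 apart (SD, 16 pairs of 4 and 4 libraries, lowest 0.633 and highest 0.877). Pairs within a group were 0.552 apart on average in the untreated wild type and 0.590 in the treated knockout. The untreated knockout was at a mean distance of 0.742 from the untreated wild type. By this measure acetate-treated and untreated knockout libraries stood about equally far from the untreated wild type. By the median absolute log2 fold change against the untreated wild type, the treated knockout was nearer, at 0.21 against 0.256 for the untreated knockout. The 95th percentiles were 1.22 and 1.26. Treated knockout libraries were closer to the acetate-treated wild type, at a mean of 0.643, and farthest from the untreated knockout, at a mean of 0.855. Pairs share libraries, and these distances are a description without a test.

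**Figure D2:**
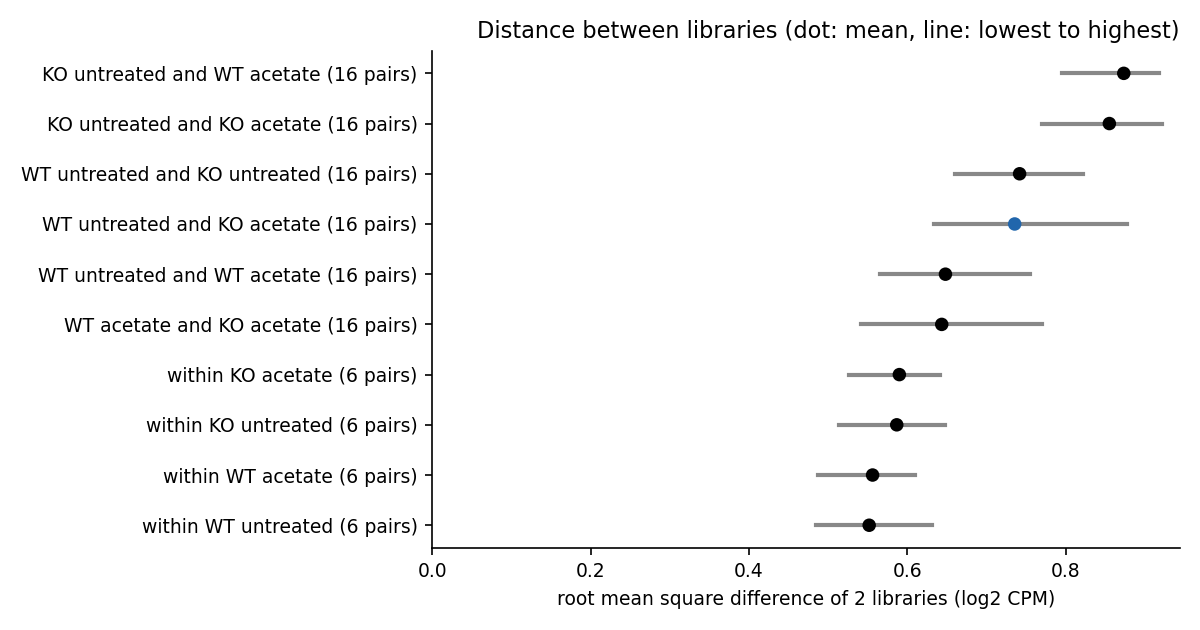
Root mean square difference in log2 CPM between 2 libraries (x axis) for pairs within each group and between groups (rows, with the number of pairs), as the mean (dot) and the lowest to highest value (line). Pairs of KO acetate and WT untreated libraries average 0.735, next to 0.742 for pairs of KO untreated and WT untreated libraries.

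Tested against each of the other groups in the same fit, the treated knockout differed from the acetate-treated wild type in 150 genes (1.00%), 73 higher (0.487%) and 77 lower (0.514%). It differed from the untreated knockout in 6550 genes (43.7%), 3314 higher (22.1%) and 3236 lower (21.6%). The first of these is also the test of whether the difference of the treated knockout from the untreated wild type differs from that of the acetate-treated wild type. The count against the acetate-treated wild type was not stable. It was 661 without KO acetate 2, 371 without KO acetate 4, 59 without WT acetate 2, 42 without WT acetate 4, 24 without KO acetate 3, 22 without KO acetate 1 and 21 without WT acetate 3.

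The 5 subunits of the targeted complex all had 95% intervals within 1.5-fold. Intervals here and further on are per gene and not adjusted for the number of genes, and each ± is an SD over 4 libraries. Pdha1, the catalytic E1 alpha subunit, was at 234, 250.2, 241 and 263 CPM in the 4 untreated wild-type libraries and at 262, 254, 244 and 232 CPM in the 4 treated knockout libraries. The untreated knockout had 225 ± 11.5 CPM and the acetate-treated wild type 259 ± 10.8 CPM. The groups compared overlapped, with a log2 fold change of 0.01 (95% interval -0.12 to 0.13, edgeR adjusted p = 0.959). Pdhb, the E1 beta subunit, was the only one of the 5 subunits called, lower at 86.7 ± 3.41 CPM (SD, n = 4) against 96.6 ± 5.39 CPM, a log2 fold change of -0.16 (edgeR adjusted p = 0.0278); 7 of the alternative settings put it above the threshold, with edgeR adjusted p from 0.0505 to 0.291. Dlat (E2), Dld (E3) and Pdhx (the E3-binding protein) had log2 fold changes of 0.15, 0.17 and -0.12, none of them called. A count over a whole gene does not show whether a few exons are missing, so these levels do not check the knockout. Among the kinases that inactivate the complex, Pdk1 was lower, at 67.7 ± 5.50 CPM against 91.2 ± 3.96 CPM (log2 fold change -0.43, edgeR adjusted p = 0.000706). Pdk3 was lower too, at 50.6 ± 2.83 CPM against 59.7 ± 1.5 CPM (log2 fold change -0.24, edgeR adjusted p = 0.00793), though not with library totals and no TMM (adjusted p = 0.0816). In all, 3 of 8 genes of the kinases, phosphatases and pyruvate carrier were lower and none higher (37.5% called against 26.4% of all genes). Of 12 genes of acetate activation, citrate export and acetyl-CoA use, 1 was higher and 2 lower, a called share of 25% against 26.4% of all genes.

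Il17a, which encodes the defining cytokine of Th17 cells, was among the 10 largest rises of called genes without overlap and with at least 5 CPM. It was at 96.5, 199, 123 and 122 CPM in the untreated wild type and at 1124, 776, 548 and 1023 CPM in the treated knockout. Every treated knockout library was above every wild-type library, and KO acetate 3 was the lowest of its group. The rise was 6.42-fold (log2 fold change 2.68 with an SE of 0.31, edgeR adjusted p = 7.55e-05). Il17f, which is encoded next to Il17a on chromosome 1 and whose protein pairs with IL-17A, was at 399, 657, 466 and 497 CPM in the untreated wild type and at 1367, 1143, 765 and 1194 CPM in the treated knockout. The groups did not overlap, and KO acetate 3 was again the lowest of the treated knockout. It rose 2.21-fold (log2 fold change 1.15 with an SE of 0.23, edgeR adjusted p = 0.00237). The untreated knockout had 138 ± 27.7 CPM of Il17a and 418 ± 88.8 CPM of Il17f, and the acetate-treated wild type 485 ± 154 and 952 ± 234 CPM. Against the acetate-treated wild type, the treated knockout was not called for Il17a (log2 fold change 0.84, 95% interval 0.20 to 1.47, edgeR adjusted p = 0.154) or for Il17f (log2 fold change 0.23, 95% interval -0.25 to 0.71, edgeR adjusted p = 0.616).

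The 250 bases upstream of both genes are shown because they rose together. They come from RefSeq's annotation of mouse build GRCm38.p6, read 5′ to 3′ on each gene's strand, at chr1:20730655-20730904 (plus strand) for Il17a and chr1:20784271-20784520 (minus strand) for Il17f. Capitals mark AGGTCA, the core site bound by RORγt and many other nuclear receptors, searched on both strands.
Il17a: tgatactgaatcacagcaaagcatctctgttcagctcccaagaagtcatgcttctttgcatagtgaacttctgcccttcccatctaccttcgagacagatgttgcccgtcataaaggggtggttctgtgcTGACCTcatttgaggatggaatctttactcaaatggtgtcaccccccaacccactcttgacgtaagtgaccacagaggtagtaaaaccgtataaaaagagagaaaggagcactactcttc
Il17f: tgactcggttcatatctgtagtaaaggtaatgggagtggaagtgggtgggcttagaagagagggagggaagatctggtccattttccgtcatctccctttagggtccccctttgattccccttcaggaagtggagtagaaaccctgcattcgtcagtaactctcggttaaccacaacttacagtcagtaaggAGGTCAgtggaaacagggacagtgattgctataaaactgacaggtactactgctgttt
Each stretch held 1 match, from base -120 to base -115 on the opposite strand in Il17a (printed as its reverse complement, TGACCT) and from base -58 to base -53 in Il17f, counted from the start site. The motif occurred in 14.0% of the 32851 upstream stretches of this length in the table, so a match is a description and not a sign of binding.

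Il21, Il22 and Il23r, genes of the same Th17 program, were not called. Il21, which acts back on Th17 cells, was at 272, 272, 271 and 301 CPM in the untreated wild type and 351, 242, 281 and 334 CPM in the treated knockout, the order in which values of both groups are given from here on. The groups overlapped (log2 fold change 0.11, 95% interval -0.14 to 0.37, edgeR adjusted p = 0.519). Il22, which acts on epithelial cells, was at 13.3, 22.0, 23.8 and 19.2 CPM and 14.1, 14.4, 18.4 and 20.1 CPM, again overlapping (log2 fold change -0.23, 95% interval -0.90 to 0.44, edgeR adjusted p = 0.631). Il23r, the receptor for the cytokine that maintains Th17 cells, was at 22.9, 27.3, 28.9 and 30.0 CPM and 23.4, 23.6, 23.8 and 26.7 CPM. It was not called either (log2 fold change -0.16, 95% interval -0.45 to 0.13, edgeR adjusted p = 0.411). All of these genes stood apart from the untreated knockout, which had 477 ± 55.6 CPM of Il21, 5.98 ± 2.93 CPM of Il22 and 7.82 ± 2.48 CPM of Il23r. The treated knockout was lower than it for Il21 (log2 fold change -0.66, edgeR adjusted p = 0.000265). It was higher for Il22 (log2 fold change 1.47, adjusted p = 0.00258) and for Il23r (log2 fold change 1.64, adjusted p = 1.41e-07). The 95% interval of Il23r against the untreated wild type lay within 1.5-fold, that of Il22 did not.

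Csf2, Il3, Il23a and Cxcl3, which encode inflammatory cytokines and a chemokine, were like Il17a among the 10 largest rises. Csf2, the gene of GM-CSF, was at 4.75, 9.45, 7.93 and 6.32 CPM in the untreated wild type and at 51.3, 45.6, 35.9 and 39.5 CPM in the treated knockout, with a wide gap between the groups. It rose 6.03-fold (log2 fold change 2.59 with an SE of 0.32, edgeR adjusted p = 0.000102) and was also above the acetate-treated wild type (log2 fold change 1.60, edgeR adjusted p = 0.0297), though not called against the untreated knockout (log2 fold change 0.70, adjusted p = 0.0675). Il3, a hematopoietic growth factor encoded beside Csf2, was at 2.34, 4.27, 2.73 and 2.03 CPM and 14.6, 28.8, 14.2 and 15.9 CPM, with KO acetate 2 far above its group. It rose 6.42-fold (log2 fold change 2.68 with an SE of 0.40, edgeR adjusted p = 0.000395). Ccl20, the chemokine ligand of CCR6, was at 7.98, 10.2, 7.88 and 7.54 CPM and 41.3, 18.7, 22.8 and 38.9 CPM without overlap (log2 fold change 1.86, edgeR adjusted p = 0.0012). Its receptor Ccr6, by which Th17 cells home, rose less, from 36.5 ± 4.48 CPM to 49.9 ± 3.49 CPM (edgeR adjusted p = 0.00214). The untreated knockout had 37.1 ± 16.6 CPM of Ccl20 and 56.3 ± 6.88 CPM of Ccr6. For neither gene was the treated knockout called against it (edgeR adjusted p = 0.486 and 0.148). Il23a, which encodes the p19 subunit of IL-23, was at 0.344, 0.879, 0.529 and 1.15 CPM and 10.8, 8.22, 4.71 and 3.05 CPM, so its 9.19-fold rise (edgeR adjusted p = 0.00462) starts from under 1.2 CPM. Cxcl3, a neutrophil chemokine, was at 1.38, 4.51, 2.94 and 3.79 CPM and 26.0, 31.6, 14.9 and 11.4 CPM (log2 fold change 2.73, edgeR adjusted p = 0.00754) and lost its call without the 4 libraries high in the unnamed gene (adjusted p = 0.0591). Il6ra, the receptor subunit for the IL-6 that starts Th17 differentiation, was the only fall in the list, from 61.7 ± 4.25 CPM to 38.6 ± 2.50 CPM (log2 fold change -0.68, edgeR adjusted p = 2.84e-05). In all, 5 of 14 Th17 cytokine and receptor genes were higher and 1 lower, with a median log2 fold change of 0.16 beside 0.01 over all genes. The called share was 42.9% against 26.4% of all genes.

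**Figure D3:**
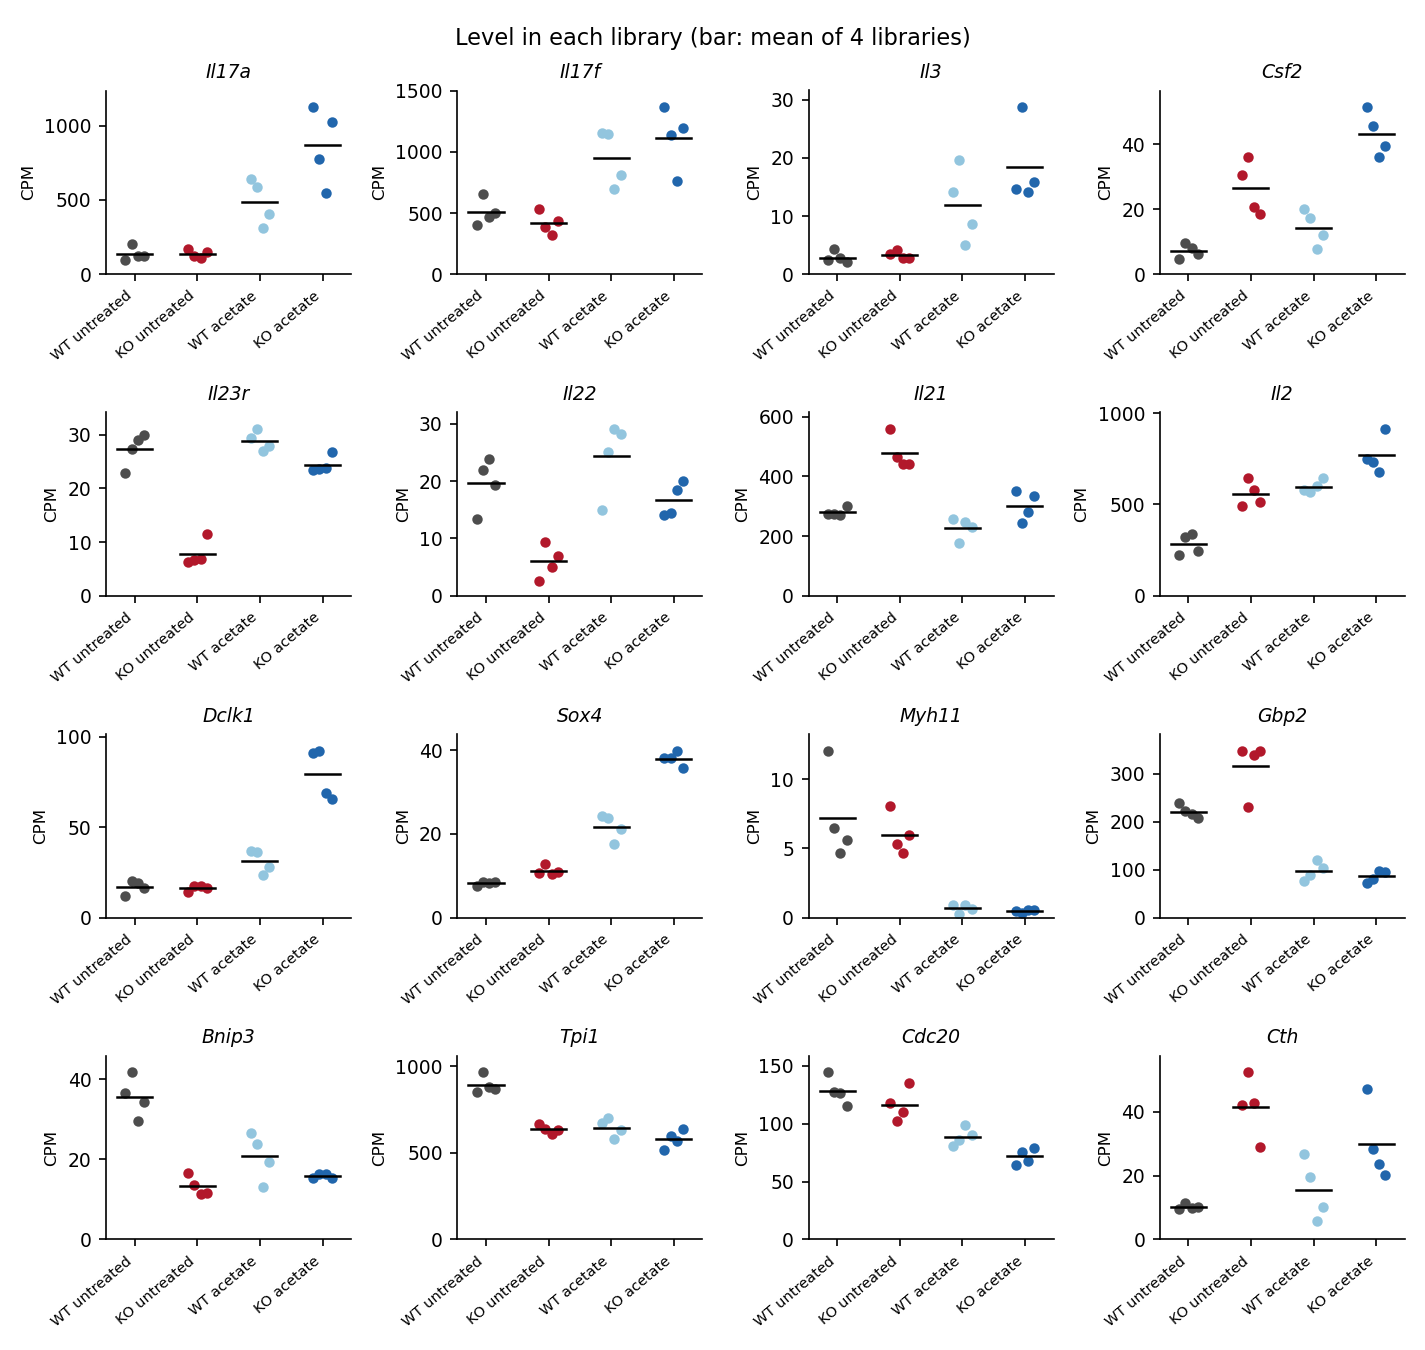
CPM (y axis, linear and starting at 0) of 16 genes in each library of the 4 groups (x axis); points are libraries and bars the means of 4. In KO acetate, Il17a, Il17f, Il3 and Csf2 lie above every WT untreated library, Il21, Il22 and Il23r overlap them, and Myh11, Gbp2, Bnip3, Tpi1 and Cdc20 lie below them.

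Among the 13 genes of the Th17 transcription factor list 4 were higher, none lower, and the median log2 fold change was 0.17. Their called share of 30.8% was near the 26.4% of all genes. Nfkbiz, which encodes IκBζ, an inducer of Th17 genes, was at 19.1, 27.3, 26.6 and 24.4 CPM in the untreated wild type and 56.9, 47.3, 44.1 and 45.3 CPM in the treated knockout. It rose 1.98-fold (edgeR adjusted p = 9.78e-06), and its 4 treated knockout libraries lay above all 12 others. Rora, which encodes RORα, rose from 57.9 ± 7.01 CPM to 98.9 ± 21.0 CPM (log2 fold change 0.77, edgeR adjusted p = 0.00161), and Maf, a regulator of Il21 and Il10, rose from 74.5 ± 5.80 CPM to 109 ± 13.1 CPM (log2 fold change 0.55, edgeR adjusted p = 0.00738). Maf was higher still in the untreated knockout, at 139 ± 30.7 CPM. The treated knockout was lower than that (log2 fold change -0.35, edgeR adjusted p = 0.0462). Basp1, counted in this list though it is not a Th17 transcription factor, rose 2.88-fold from 6.92 ± 2.24 CPM (edgeR adjusted p = 0.00387).

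Some Th1 genes and most cytotoxic effector genes were also higher. Ifng, the Th1 cytokine, was at 0.447, 0.727, 0.705 and 0.744 CPM in the untreated wild type and 5.19, 4.97, 2.31 and 5.68 CPM in the treated knockout. The groups did not overlap, and the level stayed under 6 CPM in every library of both groups (6.86-fold, log2 fold change 2.78, edgeR adjusted p = 1.35e-05). Tbx21, which encodes the Th1 regulator T-bet, was at 20.8, 20.5, 28.1 and 21.0 CPM and 33.2, 35.7, 47.5 and 44.6 CPM (log2 fold change 0.83, edgeR adjusted p = 0.0023). Ccl4, a chemokine of activated T cells, rose from 46.6 ± 9.08 CPM to 106 ± 24.6 CPM (log2 fold change 1.19, edgeR adjusted p = 0.00114). Of 13 Th1 genes 4 were higher and 2 lower (46.2% called against 26.4% of all genes). Of 7 cytotoxic effector genes tested 6 were higher and 1 lower (100% called), with a median log2 fold change of 0.63. Prf1, the pore-forming protein perforin, was at 1.86, 4.03, 2.50 and 2.67 CPM and 5.25, 8.60, 7.55 and 5.68 CPM, apart in every library (2.44-fold, edgeR adjusted p = 0.000626). Fasl, the death ligand, rose from 6.94 ± 1.04 CPM to 10.7 ± 0.332 CPM (log2 fold change 0.63, edgeR adjusted p = 0.00186). Gzmc, one of several closely related granzymes whose reads may be shared, rose from 0.511 ± 0.138 CPM to 2.46 ± 1.04 CPM (log2 fold change 2.25, edgeR adjusted p = 0.000238). Lamp1, a lysosomal membrane protein, was the fall, from 112 ± 4.70 CPM to 84.6 ± 5.97 CPM (log2 fold change -0.40, edgeR adjusted p = 0.000841). The acetate-treated wild type also had 6 of the 7 cytotoxic genes higher than the untreated wild type and none lower (median log2 fold change 0.695). Of the 13 Th1 genes it had 3 higher and 1 lower. Against the acetate-treated wild type, none of the Th1 or cytotoxic genes was called in the treated knockout. Both CD8 T cell markers were higher too: the summed level of Cd8a and Cd8b1 was 9.08 to 11.2 CPM in the untreated wild type and 13.7 to 18.2 CPM in the treated knockout, with Cd8b1 at a log2 fold change of 0.51 (edgeR adjusted p = 0.0161). Cd8a was called only at the threshold, at 1.09 and 1.98 CPM (log2 fold change 0.86, edgeR adjusted p = 0.05 after rounding). The summed level was 13.1 to 17.2 CPM in the acetate-treated wild type, against which neither marker was called in the treated knockout. In the untreated knockout it was 5.13 to 8.355 CPM, with both markers called lower than in the untreated wild type. The cultures started from naive CD4+ T cells isolated with magnetic beads. In a bulk sample fewer or more cells of a type and less or more RNA per cell cannot be told apart, and the part of CD8 T cells in the cytotoxic genes was not tested.

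Genes of follicular helper T cells rose as well, 4 of 8 and none lower, with a median log2 fold change of 0.31. The called share was 50% against 26.4% of all genes. Bcl6, the defining repressor of that lineage, was at 16.3, 16.7, 18.7 and 15.9 CPM in the untreated wild type and 35.2, 35.8, 35.6 and 35.3 CPM in the treated knockout. Each group was tight and there was no overlap (2.10-fold, log2 fold change 1.07 with an SE of 0.09, edgeR adjusted p = 5.71e-07). Cxcr5, the receptor that guides cells into B cell follicles, was at 5.40, 8.88, 9.35 and 8.14 CPM and 18.9, 26.4, 23.3 and 19.9 CPM (2.78-fold, log2 fold change 1.47, edgeR adjusted p = 2.79e-05). Cd40lg, which gives help to B cells, rose from 137 ± 15 CPM to 182 ± 4.13 CPM (log2 fold change 0.41, edgeR adjusted p = 0.000593). Against the acetate-treated wild type, none of the 8 genes was called.

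Il2 rose while its receptor and its feedback inhibitors fell. Il2, the T cell growth factor, was at 224, 322, 338 and 246 CPM in the untreated wild type and 749, 735, 676 and 913 CPM in the treated knockout, above every one of the 12 other libraries. Its rise was 2.72-fold (log2 fold change 1.45 with an SE of 0.13, edgeR adjusted p = 1.28e-06). The untreated knockout, at 556 ± 69.2 CPM, was also above the untreated wild type (edgeR adjusted p = 1.6e-05). So was the acetate-treated wild type, at 598 ± 35.4 CPM (edgeR adjusted p = 2.72e-05). Against the latter, Il2 was not called in the treated knockout (log2 fold change 0.36, edgeR adjusted p = 0.132). Lif, another cytokine of the list, was at 242, 438, 408 and 412 CPM and 604, 603, 598 and 599 CPM, again above all 12 others. Its log2 fold change was 0.68 against the untreated wild type (edgeR adjusted p = 0.000798). It was not called against the acetate-treated wild type (log2 fold change 0.30, edgeR adjusted p = 0.206). The receptor chains went down. Il2ra, the alpha chain CD25, fell from 1714 ± 89.0 CPM to 1366 ± 90.3 CPM (log2 fold change -0.33, edgeR adjusted p = 0.00477), and Il2rg, the common gamma chain, from 416 ± 35.1 CPM to 300.2 ± 11.4 CPM (log2 fold change -0.47, edgeR adjusted p = 0.000492). Socs2, a STAT5-induced inhibitor of cytokine signaling, was at 113, 64.8, 67.4 and 74.8 CPM and 27.4, 23.8, 29.9 and 34.3 CPM. WT untreated 1 was the highest, and the groups did not overlap (log2 fold change -1.47, edgeR adjusted p = 0.00123). Socs1, its relative, fell from 74.1 ± 3.72 CPM to 51.6 ± 9.57 CPM (log2 fold change -0.52, edgeR adjusted p = 0.000955). Of 15 genes of the IL-2 and STAT5 pathway 3 were higher and 7 lower (Socs2, Socs1, Il2rg, Il2ra, Il2rb, Jak3 and Cish), with a median log2 fold change of -0.15. The called share was 66.7% against 26.4% of all genes.

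Of 19 genes of early T cell receptor activation 4 were higher and none lower (median log2 fold change 0.23), a called share of 21.1%, below the 26.4% of all genes. Cd44, an adhesion receptor of activated T cells, rose from 213 ± 28.5 CPM to 294 ± 32.9 CPM (log2 fold change 0.46, edgeR adjusted p = 0.00237), and Cd69, an early activation marker, from 60.6 ± 4.73 CPM to 85.6 ± 8.66 CPM (log2 fold change 0.50, edgeR adjusted p = 0.0138). Dusp4, a phosphatase induced by MAP kinase signaling, rose from 160.4 ± 25 CPM to 255 ± 31.5 CPM (log2 fold change 0.67, edgeR adjusted p = 0.00155). Of 12 naive and memory genes 4 were lower and 1 higher (median -0.23, 41.7% called). Lef1, a transcription factor of naive T cells, was at 270.2, 280.0, 276 and 265 CPM in the untreated wild type and 175, 197, 192 and 156 CPM in the treated knockout, and its 4 treated knockout libraries lay below all 12 others (log2 fold change -0.60, edgeR adjusted p = 7.48e-06). Against the acetate-treated wild type Lef1 was not called (edgeR adjusted p = 0.0947). Cd27, a costimulatory receptor, fell from 37.8 ± 2.27 CPM to 30.6 ± 1.74 CPM (log2 fold change -0.30, edgeR adjusted p = 0.00552).

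Of 9 inhibitory receptor genes 5 were higher and none lower, a count that fell to 2 or 3 when 7 of the 8 libraries were left out one at a time. The called share was 55.6% against 26.4% of all genes. Ctla4, which competes for costimulatory ligands, was at 276, 388, 352 and 404 CPM in the untreated wild type and 620.1, 577, 527 and 553 CPM in the treated knockout. The groups did not overlap (log2 fold change 0.68, edgeR adjusted p = 0.00617). Tigit, an inhibitory receptor for nectin-like ligands, was at 11.9, 20.5, 15.6 and 17.6 CPM and 39.4, 45.9, 31.8 and 29.5 CPM (2.23-fold, edgeR adjusted p = 0.00222). For both, the acetate-treated wild type was close, at 469.6 ± 119 CPM of Ctla4 and 32.3 ± 10.6 CPM of Tigit, and the treated knockout was not called against it (edgeR adjusted p = 0.373 and 0.705). The untreated knockout was below the wild type for both, at 162 ± 22.4 CPM (edgeR adjusted p = 8.18e-05) and 7.80 ± 0.627 CPM (adjusted p = 0.00323).

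The signal chains of the T cell receptor complex were lower. Among the T cell markers, 5 of 7 were lower and none higher (71.4% called against 26.4% of all genes). Cd3d was at 136, 139, 131 and 153 CPM in the untreated wild type and 89.2, 104, 94.1 and 102 CPM in the treated knockout, below all 12 other libraries. Its log2 fold change was -0.52 (edgeR adjusted p = 1.87e-05). Cd3g was at 189, 174, 175 and 204 CPM and 116, 133, 122 and 143 CPM (log2 fold change -0.53, edgeR adjusted p = 2.16e-05), and Cd3e at 168, 160.5, 154 and 131 CPM and 120.1, 118, 116 and 112 CPM (log2 fold change -0.40, edgeR adjusted p = 0.000912). In none of these did the groups overlap, and Cd3d and Cd3g were also lower than in the acetate-treated wild type (edgeR adjusted p = 0.0308 and 0.00488). Cd4 changed little, from 458 ± 17.7 CPM to 404 ± 22.3 CPM (log2 fold change -0.18, edgeR adjusted p = 0.0367), and 7 of the alternative settings put it above the threshold, with edgeR adjusted p from 0.058 to 0.216. Lck and Cd28 were not called, at log2 fold changes of -0.10 and -0.05.

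Glycolysis was one of the larger groups of falls. Of 22 glycolytic genes 11 were lower in the treated knockout and 2 higher, with a median log2 fold change of -0.29. The called share was 59.1% against 26.4% of all genes. Tpi1, triosephosphate isomerase, was at 849, 964, 878 and 868 CPM in the untreated wild type and 514, 598, 569 and 638 CPM in the treated knockout. The lowest wild-type library was well above the highest treated one (log2 fold change -0.62 with an SE of 0.07, edgeR adjusted p = 1.53e-05). Pfkl, a phosphofructokinase, was at 191, 208, 202 and 174 CPM and 107, 118, 129.5 and 124 CPM (log2 fold change -0.70, edgeR adjusted p = 2.26e-06). Gpi1, glucose-6-phosphate isomerase, fell from 435 ± 24.6 CPM to 301 ± 26.7 CPM (log2 fold change -0.53, edgeR adjusted p = 2.26e-05) and the glucose transporter Slc2a1 from 103 ± 8.94 CPM to 63.2 ± 6.56 CPM (log2 fold change -0.70, edgeR adjusted p = 2.66e-05). The remaining falls of the list were in Gapdh, Pgk1, Slc16a3, Eno1, Pgam1, Pkm and Ldha, and the rises in Pfkfb4 and Eno3. Against the acetate-treated wild type only Gpi1 of the 22 was called (log2 fold change -0.30, edgeR adjusted p = 0.037). The untreated knockout also differed from the untreated wild type, with 15 of the 22 lower and none higher (median log2 fold change -0.43). For the acetate-treated wild type 7 were lower and 1 higher (median -0.13). Of 9 pentose phosphate genes 4 were lower and none higher (44.4% called). That count fell to 1 with library totals and no TMM, without WT untreated 2 and without KO acetate 1, and to 2 without WT untreated 3.

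Targets of the hypoxia-inducible factor HIF1, which also drives glycolytic genes, fell more often than they rose: 8 of 18 fell and 3 rose, and the median log2 fold change was -0.18. The called share was 61.1% against 26.4% of all genes. Against the same wild type, 10 of the 18 were lower and 1 higher in the untreated knockout (median -0.36). In the acetate-treated wild type 7 were lower and none higher (median -0.12). Bnip3, a mitophagy receptor, was at 36.6, 41.7, 29.5 and 34.4 CPM in the untreated wild type and 15.4, 16.4, 16.3 and 15.3 CPM in the treated knockout. No library overlapped (2.24-fold lower, log2 fold change -1.17, edgeR adjusted p = 0.000258). The untreated knockout had 13.25 ± 2.44 CPM of Bnip3 and the acetate-treated wild type 20.7 ± 5.90 CPM. Kdm3a, a histone demethylase, was at 65.9, 61.0, 61.5 and 61.3 CPM and 41.7, 44.0, 44.2 and 40.1 CPM (log2 fold change -0.55, edgeR adjusted p = 4.25e-06), and P4ha1, a collagen prolyl hydroxylase subunit, fell from 65.7 ± 1.35 CPM to 50.7 ± 1.90 CPM (log2 fold change -0.37, edgeR adjusted p = 2.86e-05). The 3 rises, in Ndrg1, P4ha2 and Adm, were no longer called without the 4 libraries high in the unnamed gene, and 1 of the 18 was called higher without KO acetate 1.

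Nuclear-encoded subunits of respiratory complex I, the entry of NADH electrons into the chain, were lower in 15 of 35 cases and higher in none (median log2 fold change -0.23). The called share was 42.9% against 26.4% of all genes. Ndufv3 was at 55.4, 54.5, 51.4 and 50.2 CPM in the untreated wild type and 32.5, 41.0, 32.4 and 37.0 CPM in the treated knockout. The groups did not overlap (log2 fold change -0.57, edgeR adjusted p = 9.75e-05), and the gene was also below the acetate-treated wild type (log2 fold change -0.47, edgeR adjusted p = 0.0163). Ndufv2, a subunit of the NADH-binding module, fell from 152 ± 6.50 CPM to 122 ± 14.2 CPM (log2 fold change -0.31, edgeR adjusted p = 0.0036). The changes were small, since the 95% interval of 30 of the 35 lay within 1.5-fold. Of the 13 genes encoded by the mitochondrial genome 1 was higher and 1 lower (15.4% called). TCA cycle and glutamine genes were split, 3 of 25 higher and 7 lower (40% called). Fatty acid oxidation genes hardly moved, with 2 of 19 higher and none lower (10.5% called).

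Among the 38 gene lists, the cell cycle lists held the highest shares of falls. Of 24 mitosis and spindle genes 20 were lower and none higher, with a median log2 fold change of -0.30, and of 27 DNA replication and nucleotide supply genes 19 were lower and none higher, also with a median of -0.30. The called shares were 83.3% and 70.4% against 26.4% of all genes. With library totals and no TMM the mitosis count was 13. Against the same untreated wild type, 12 mitosis genes were lower and none higher in the untreated knockout (median -0.167). In the acetate-treated wild type 9 were lower and none higher (median -0.174). For replication, 6 were lower and 1 higher in the untreated knockout, and 10 lower and none higher in the acetate-treated wild type. Cdc20, an activator of the anaphase-promoting complex, was at 144, 128, 127 and 116 CPM in the untreated wild type and 64.4, 75.2, 68.0 and 79.2 CPM in the treated knockout, below all 12 other libraries. Its log2 fold change against the untreated wild type was -0.84 (with an SE of 0.09, edgeR adjusted p = 5.35e-06). It was not called against the acetate-treated wild type (edgeR adjusted p = 0.0856). Ccnb2, cyclin B2, was at 92.1, 92.2, 84.5 and 95.8 CPM and 51.7, 66.5, 57.3 and 56.0 CPM (log2 fold change -0.66, edgeR adjusted p = 4.26e-06). Ube2c, the ubiquitin-conjugating enzyme of that complex, fell from 214 ± 9.46 CPM to 129 ± 19.9 CPM (log2 fold change -0.73, edgeR adjusted p = 1.43e-05), and the kinesin Kif20a from 168 ± 7.82 CPM to 114 ± 8.66 CPM (log2 fold change -0.56, edgeR adjusted p = 1.43e-05). In replication, Mcm4, a subunit of the replicative helicase, was at 366, 344, 347 and 327 CPM and 259, 267, 281 and 254 CPM without overlap (log2 fold change -0.38, edgeR adjusted p = 0.000485). Lig1, DNA ligase, fell from 247 ± 9.60 CPM to 186 ± 12.7 CPM (log2 fold change -0.41, edgeR adjusted p = 4.76e-05), and Pole, a replicative polymerase, from 119 ± 3.49 CPM to 92.5 ± 9.35 CPM (log2 fold change -0.36, edgeR adjusted p = 0.000424). The falls were small: 25 of the 27 replication genes and 19 of the 24 mitosis genes had intervals within 1.5-fold. Against the acetate-treated wild type 3 mitosis genes and 1 replication gene were lower, Ccnb2 and Ube2c among them (edgeR adjusted p = 0.0337 and 0.0267). Genes of Myc and ribosome biogenesis did not follow, with 2 of 20 higher, none lower (10% called) and all 20 intervals within 1.5-fold.

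**Figure D4:**
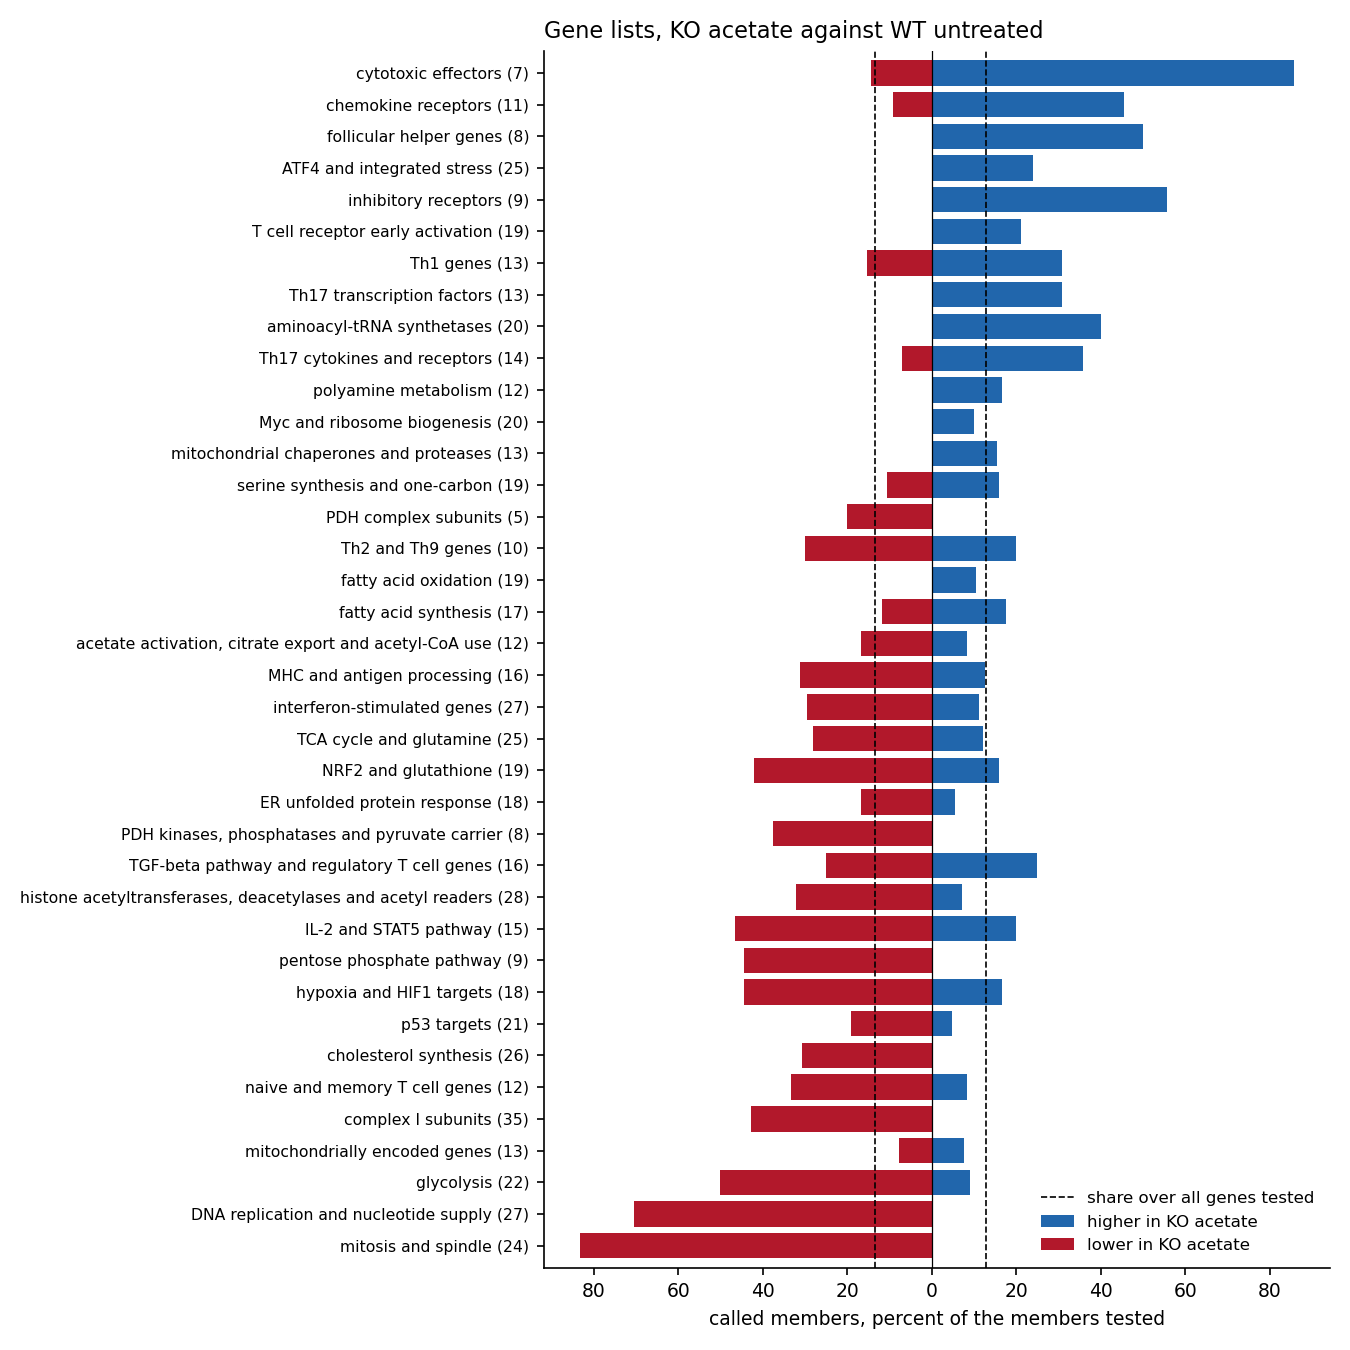
Percent of the tested members of each gene list (rows, number tested in brackets, ordered by median log2 fold change) called higher (blue, to the right) or lower (red, to the left) in the treated knockout than in the untreated wild type. Dashed lines mark the shares over all genes tested, 12.9% higher and 13.5% lower; the mitosis and replication lists reach farthest to the left.

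ATF4 is the transcription factor of the integrated stress response to lack of amino acids. Of 25 genes of ATF4 and this response 6 were higher, Atf4 itself among them, and none lower. Their median log2 fold change was 0.29 and their called share 24.0% against 26.4% of all genes. None of them was called without KO acetate 1 or without the 4 libraries high in the unnamed gene, and 1 to 3 were called without any 1 of the untreated wild-type libraries. Cth, which makes cysteine, was at 9.52, 11.4, 9.73 and 10.1 CPM in the untreated wild type and 47.1, 28.3, 23.5 and 20.2 CPM in the treated knockout. KO acetate 1 was the highest, and the groups did not overlap (log2 fold change 1.55, edgeR adjusted p = 0.0158, and 0.0535 without KO acetate 1). Slc7a11, the cystine transporter, rose from 1.21 ± 0.222 CPM to 2.53 ± 0.916 CPM (log2 fold change 1.06, edgeR adjusted p = 0.0208, and 0.0989 without KO acetate 1). Of 20 aminoacyl-tRNA synthetases, which load tRNAs, 8 were higher and none lower (40% called), and 3 to 5 were higher when WT untreated 1, 2, 3 or 4 or KO acetate 1 or 3 was left out. Nars, for asparagine, was at 298, 282, 277 and 286 CPM and 547, 376, 405 and 349 CPM, with KO acetate 1 again the highest (log2 fold change 0.55, edgeR adjusted p = 0.00655). Yars, for tyrosine, rose from 111 ± 5.11 CPM to 147 ± 15.3 CPM (log2 fold change 0.41, edgeR adjusted p = 0.00279). The same 25 genes of ATF4 and the integrated stress response gave no rise and 16 falls against the untreated knockout.

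Interferon-induced genes moved in both directions, 8 of 27 lower and 3 higher (40.7% called against 26.4% of all genes). Gbp2, an interferon-induced GTPase, was at 239.8, 222, 216 and 208 CPM in the untreated wild type and 71.7, 81.6, 97.7 and 95.7 CPM in the treated knockout. There was a wide gap between the groups (2.55-fold lower, log2 fold change -1.35 with an SE of 0.15, edgeR adjusted p = 2.18e-05). Gbp5, of the same family, fell from 75.9 ± 3.27 CPM to 39.3 ± 4.58 CPM (log2 fold change -0.95, edgeR adjusted p = 9.11e-06). Falls were also found in Gbp4, Igtp, Gbp3, Irf1 and Ifi35, and related GTPases may share reads. The 3 rises were all at low level and were picked for naming after their values were seen. Isg15, a ubiquitin-like modifier, was at 0.378, 0.606, 0.411 and 0.439 CPM and 1.08, 1.61, 1.42 and 0.816 CPM (log2 fold change 1.41, edgeR adjusted p = 0.00331). Ifit1, an antiviral RNA-binding protein, went from 0.428 ± 0.190 CPM to 1.13 ± 0.344 CPM (log2 fold change 1.40, edgeR adjusted p = 0.00673), and Oasl2 was at 0.0344, 0.0303, 0.0294 and 0 CPM and 0.573, 0.449, 0.248 and 0.106 CPM (edgeR adjusted p = 0.00244), too close to 0 in the wild type for a fold change to be given. Type I interferon targets such as Isg15 and Ifit1 were higher still in the untreated knockout, at 3.72 ± 1.03 and 3.07 ± 0.908 CPM.

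The 250 bases upstream of Gbp2, the gene of this list with the largest fall, are shown from RefSeq's annotation of GRCm38.p6 at chr3:142620413-142620662 (plus strand), 5′ to 3′, with a match to GAAA, any 2 bases and GAAA in capitals. This pattern is the core of the interferon-stimulated response element and was searched on both strands.
Gbp2: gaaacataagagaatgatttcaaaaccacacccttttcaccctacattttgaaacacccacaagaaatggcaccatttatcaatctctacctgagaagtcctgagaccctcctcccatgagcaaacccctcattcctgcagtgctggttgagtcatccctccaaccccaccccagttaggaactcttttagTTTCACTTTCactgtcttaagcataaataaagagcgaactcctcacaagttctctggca
The 1 match lay on the opposite strand, from base -59 to base -50, and is printed as its reverse complement, TTTCACTTTC. Of the 32851 upstream stretches of this length 2.98% held the pattern, and a match is not a measured site.

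Some antigen processing genes fell as well. Tapbp, which encodes tapasin, the loader of MHC class I, was at 138, 99.1, 107 and 91.2 CPM in the untreated wild type and 46.1, 48.3, 51.3 and 51.9 CPM in the treated knockout. Its 4 treated knockout libraries lay below all 12 others. Against the untreated wild type it was 2.20-fold lower (edgeR adjusted p = 2.86e-05). The acetate-treated wild type had 69.5 ± 11.45 CPM, and the treated knockout was not called against it (edgeR adjusted p = 0.0782). Tap1, the peptide transporter, fell from 89.5 ± 2.62 CPM to 64.8 ± 6.37 CPM (log2 fold change -0.47, edgeR adjusted p = 0.000317), and Psmb10, an immunoproteasome subunit, from 26.0 ± 2.91 CPM to 15.8 ± 3.64 CPM (log2 fold change -0.72, edgeR adjusted p = 0.000866). Of 16 genes of MHC and antigen processing 5 were lower and 2 higher (43.8% called against 26.4% of all genes). The rises, named after their values were seen, were H2-Q7, from 40.9 ± 2.33 CPM to 88.4 ± 7.60 CPM (edgeR adjusted p = 0.00186), whose near-identical relatives make its count uncertain, and the class II gene H2-Ab1, from 4.60 ± 1.42 CPM to 8.67 ± 1.5 CPM (edgeR adjusted p = 0.00772).

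In lipid synthesis, which uses cytosolic acetyl-CoA, 8 of 26 cholesterol genes were lower and none higher (median log2 fold change -0.22), with 2 lower under library totals and no TMM, 5 without KO acetate 3 and 15 by DESeq2. The called share was 30.8% against 26.4% of all genes. Ebp, a sterol isomerase, fell from 44.5 ± 3.89 CPM to 34.6 ± 1.53 CPM (log2 fold change -0.36, edgeR adjusted p = 0.00183). Of 17 fatty acid synthesis genes 3 were higher and 2 lower (29.4% called). Acsl4, which activates polyunsaturated fatty acids, rose from 247 ± 11.0 CPM to 360.3 ± 61.5 CPM (log2 fold change 0.54, edgeR adjusted p = 0.00473).

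Of 28 genes of histone acetyltransferases, deacetylases and acetyl readers, enzymes that use or remove acetyl groups, 9 were lower and 2 higher. Their called share was 39.3% against 26.4% of all genes. Kat2b, the acetyltransferase PCAF, was at 27.3, 24.0, 25.6 and 26.2 CPM in the untreated wild type and 18.5, 15.3, 19.1 and 18.8 CPM in the treated knockout, all 4 below the wild type (log2 fold change -0.52, edgeR adjusted p = 0.000601). Sirt1, an NAD-dependent deacetylase, fell from 36.4 ± 3.02 CPM to 28.6 ± 2.36 CPM (log2 fold change -0.35, edgeR adjusted p = 0.00496), while the untreated knockout had 56.1 ± 3.40 CPM. In the p53 target list 4 of 21 were lower and 1 higher, and 8 were lower without KO acetate 2. The called share of 23.8% was below the 26.4% of all genes. Ccng1, cyclin G1, was at 502, 536, 507 and 548 CPM and 352, 403, 360.4 and 393 CPM (log2 fold change -0.47, edgeR adjusted p = 0.000102), and Gtse1, which acts on p53 in dividing cells, fell from 132 ± 8.62 CPM to 86.9 ± 14.5 CPM (log2 fold change -0.60, edgeR adjusted p = 0.000451). Of 19 NRF2 and glutathione genes 8 were lower and 3 higher (57.9% called), with 4 lower without WT untreated 1 and 3 with library totals and no TMM. Gpx1, a glutathione peroxidase, fell from 177 ± 12.6 CPM to 115 ± 15.5 CPM (log2 fold change -0.62, edgeR adjusted p = 0.000266).

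Of 11 chemokine receptor genes 5 were higher and 1 lower (54.5% called against 26.4% of all genes), with 3 higher without WT untreated 1 or 3 and without KO acetate 1, 2 or 3. Of 16 genes of the TGFβ pathway and of regulatory T cells 4 were higher and 4 lower (50% called), with 2 lower without WT untreated 1. Of 10 Th2 and Th9 genes 2 were higher and 3 lower (50% called). Of 19 serine and one-carbon genes 3 were higher and 2 lower (26.3% called). Mthfd2, the mitochondrial folate enzyme, rose from 178 ± 12.4 CPM to 283 ± 50.7 CPM (log2 fold change 0.67, edgeR adjusted p = 0.0145, and 0.051 without KO acetate 1). Of 18 genes of the unfolded protein response 1 was higher and 3 lower (22.2% called). Of 13 mitochondrial chaperone and protease genes 2 were higher and none lower, and the same counts held for 12 polyamine genes (15.4% and 16.7% called).

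Some of the largest single changes lay outside these groups. Myh11, a smooth muscle myosin heavy chain, was at 12.1, 6.48, 4.67 and 5.64 CPM in the untreated wild type and 0.472, 0.299, 0.532 and 0.532 CPM in the treated knockout. It was the largest fall that the rule for named genes admits, 15.5-fold (log2 fold change -3.96 with an SE of 0.37, edgeR adjusted p = 2.26e-06), and the acetate-treated wild type was at 0.679 ± 0.309 CPM. Mov10, an RNA helicase, was at 69.4, 52.6, 49.1 and 48.6 CPM and 19.4, 23.6, 21.4 and 16.5 CPM, also with a gap between the groups (log2 fold change -1.44 with an SE of 0.11, edgeR adjusted p = 2.65e-07). Ckmt1, a mitochondrial creatine kinase, fell 3.52-fold from 11.9 ± 3.60 CPM (edgeR adjusted p = 0.000366). The neighboring membrane protein genes Tmem176a and Tmem176b fell from 11.7 ± 1.40 and 12.9 ± 2.05 CPM to 3.82 ± 1.25 and 4.91 ± 1.51 CPM (edgeR adjusted p = 0.00259 and 0.00582), and were at 27.9 ± 7.72 and 23.1 ± 7.67 CPM in the untreated knockout. The axon guidance receptor Robo3, the growth cone protein Gap43 and the zinc finger gene Zfp750 fell by 1.40, 1.31 and 1.31 on the log2 scale, each from under 10 CPM. Among the rises, Upp1, uridine phosphorylase, went from 3.62 ± 1.17 CPM to 18.1 ± 5.31 CPM (edgeR adjusted p = 0.00125), and Ccn4, a secreted matrix protein, from 1.89 ± 0.308 CPM to 10.3 ± 2.59 CPM (edgeR adjusted p = 0.000417). Msi1, an RNA-binding protein, rose 4.95-fold from 1.24 ± 0.432 CPM (edgeR adjusted p = 0.00104). None of these genes, from Myh11 to Msi1, was called in the treated knockout against the acetate-treated wild type. The edgeR adjusted p ran from 0.0626 for Gap43 to 0.989 for Ccn4. The acetate-treated wild type had 10.2 ± 5.91 CPM of Ccn4, 2.68 ± 1.02 CPM of Ckmt1 and 3.78 ± 1.95 CPM of Tmem176a. The Th2 cytokine Il13, a member of the Th2 and Th9 list and not among the largest rises, rose 2.25-fold from 2.01 ± 0.200 CPM (edgeR adjusted p = 0.00121).

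A further test asked which genes in the treated knockout differed from all 3 other groups at once, in one direction. It called 4 genes (0.0267%), 3 higher (0.0200%) and 1 lower (0.00667%); the count was 11 without KO acetate 2. Dclk1, a microtubule-associated kinase, was at 91.2, 92.4, 68.7 and 65.9 CPM in the treated knockout, 11.9, 20.1, 19.3 and 16.3 CPM in the untreated wild type, 14.1, 17.7, 17.5 and 16.4 CPM in the untreated knockout and 37.1, 36.4, 23.4 and 28.2 CPM in the acetate-treated wild type. The treated knockout was the highest in every library, 4.69-fold above the untreated wild type (edgeR adjusted p = 2.12e-06) and 2.54-fold above the acetate-treated wild type (edgeR adjusted p = 0.00346). Sox4, a transcription factor of lymphoid progenitors, was at 38.2, 38.0, 39.9 and 35.7 CPM in the treated knockout, 7.63, 8.60, 8.14 and 8.38 CPM in the untreated wild type, 10.5, 12.9, 10.5 and 10.8 CPM in the untreated knockout and 24.3, 23.8, 17.5 and 21.1 CPM in the acetate-treated wild type. Its rise over the untreated wild type was 4.63-fold with little spread (log2 fold change 2.21 with an SE of 0.10, edgeR adjusted p = 1.1e-10). Arl6ip1, a membrane-shaping protein of the endoplasmic reticulum, was the one below the others, at 158, 181, 161 and 176 CPM against 256, 242, 243 and 251 CPM in the untreated wild type (log2 fold change -0.55, edgeR adjusted p = 3.73e-06). The remaining gene, Gm5152, is a predicted gene named after its values were seen. It was at 5.31 ± 0.893 CPM in the treated knockout and 0.816 ± 0.249 CPM in the untreated wild type (edgeR adjusted p = 1.57e-06). By the levels alone, the treated knockout libraries lay all above or all below the 12 others for 265 genes (1.77%), 144 above (0.961%) and 121 below (0.807%), and they lay all above or all below the 4 untreated wild-type libraries for 4251 genes (28.4%), 2126 above (14.2%) and 2125 below (14.2%).

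**Figure D5:**
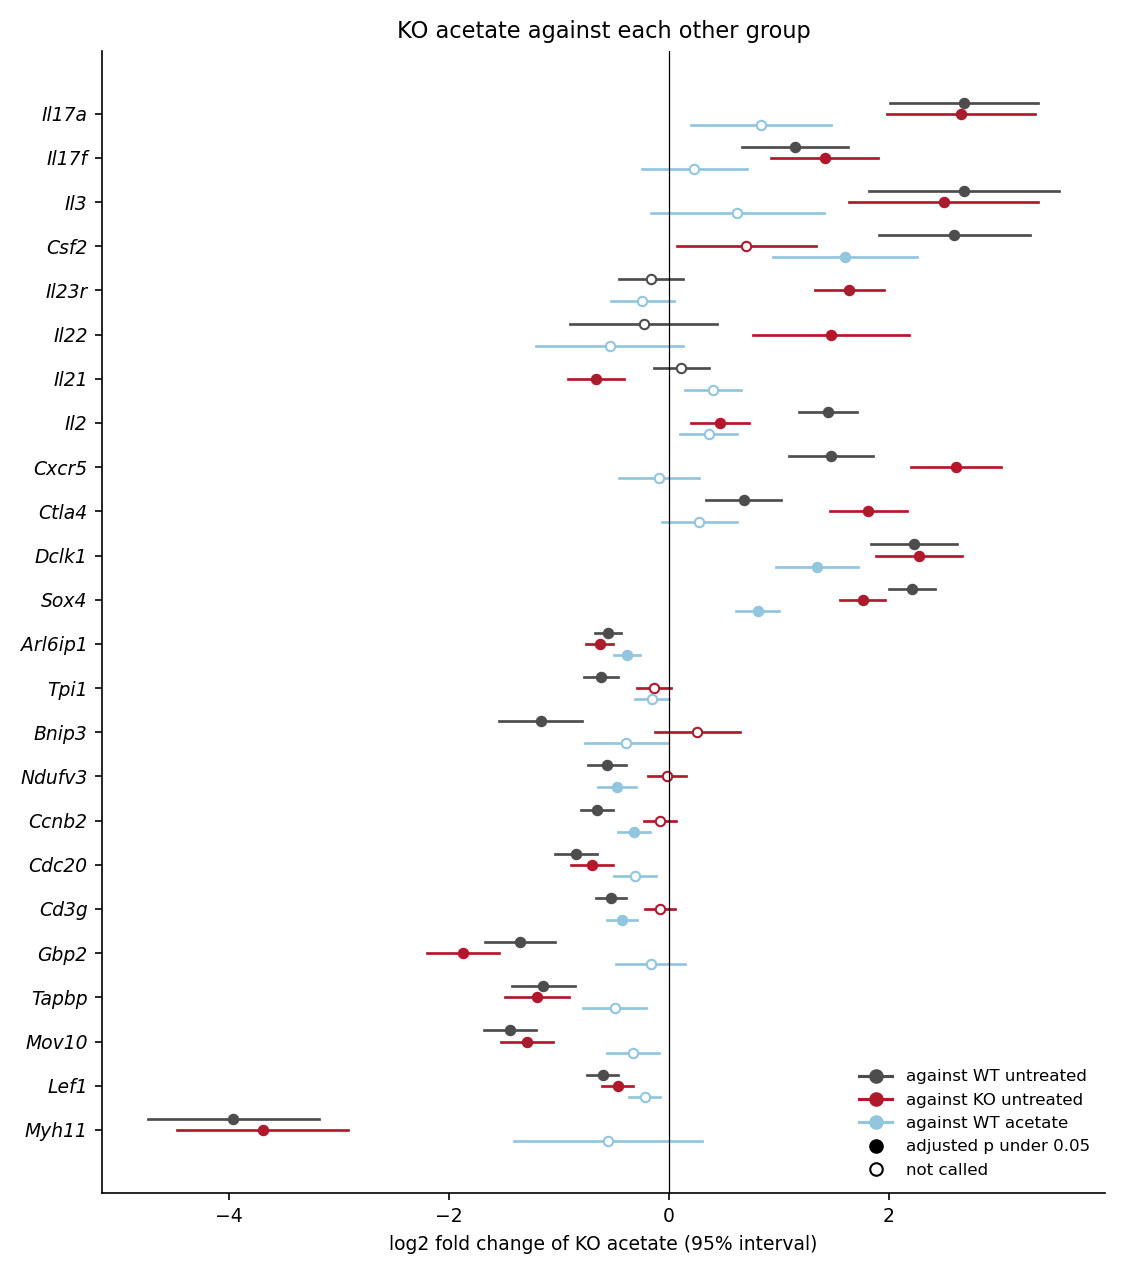
Log2 fold change of the treated knockout against each of the 3 other groups (x axis, points with 95% intervals) for 24 genes (rows); filled points mark an adjusted p under 0.05. Il21, Il22 and Il23r lie near 0 against WT untreated and away from 0 against KO untreated, while Il17a, Il2, Dclk1 and Sox4 lie to the right of 0 against WT untreated and Myh11, Gbp2 and Tapbp to the left.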

How the data were processed

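RNA of Th17 cells was sequenced in 16 stranded mRNA libraries, per the labels' protocols. The deposited table holds the authors' estimated counts per gene, which need not be whole numbers, and Salmon, DESeq2 and DESeq are named in the submitters' processing notes. The genome build and annotation were not given in the sources used here. Every gene in the table had at least 10 counts in at least 3 libraries. Symbols came from a gene name table, which named 15221 of 15571 identifiers.

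The counts as deposited were fitted with edgeR 4.0.16 in R 4.3.3 (TMM scaling, filterByExpr, robust quasi-likelihood, 4 groups in one fit). Benjamini-Hochberg adjustment ran over 14985 genes, with a threshold of 0.05. The median SE of a log2 fold change was 0.11. The code was tested on simulated data. Alternatives were DESeq2 1.42.0, other scalings and filters, a replicate term, only the 8 libraries compared and leaving out libraries. Named genes were the 5 subunits, 5 cytokine and receptor genes, the 10 largest rises and falls among called genes without overlap and with at least 5 CPM in the higher group, genes apart from all 3 groups, and up to 4 members of each of 38 lists with the smallest adjusted p; predicted genes and receptor segments were left out, and exceptions are marked. Some genes that this rule names are not reported here. The members and lists were chosen with earlier results of these data known, and lists got no test. Replicate pairs were not duplicates, since chi-square per degree of freedom between them was 6.18 to 213.6 (24 pairs). Genome sequence other than the RefSeq upstream stretches was not used here.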

Additional observations from a re-analysis of the deposited data

Results flagged for a closer look

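Within the 2 groups of 4 libraries, 216 sets of 4 values were checked for a library far from the other 3, by the gap to its nearest neighbor over the range, and 17 had one. Chance alone marks about 1 in 20 groups in this way. In the untreated wild type, library 1 stood apart for Pdk1 (85.3 CPM against 92.6 to 93.7), Basp1 (3.58 against 7.79 to 8.36), Ifng (0.447 against 0.705 to 0.744), Lif (242 against 408 to 438), Tmem176b (15.9 against 11.6 to 12) and Kdm3a (65.9 against 61.0 to 61.5). This is also the untreated wild-type library with 5.89% of its counts in the unnamed gene, and its part in these values was not tested. Library 2 stood apart for Ccl20 (10.2 against 7.54 to 7.98) and Sirt1 (31.9 against 37.4 to 38.2), and library 3 for Tbx21 (28.1 against 20.5 to 21.0). Library 4 stood apart for Il21 (300.6 against 271 to 272), Socs1 (68.6 against 75.4 to 76.6), Ifit1 (0.71 against 0.294 to 0.363) and Oasl2 (0 against 0.0294 to 0.0344). In the treated knockout, Il3 in library 2 (28.8 against 14.2 to 15.9), Kat2b in library 2 (15.3 against 18.5 to 19.1), Yars in library 1 (169.7 against 138 to 140.5) and Il23r in library 4 (26.7 against 23.4 to 23.8) stood apart.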

How the results depend on the processing

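The number of genes called between the treated knockout and the untreated wild type stayed between 2944 and 4401 over all alternatives. With the 2-fold threshold 45 genes passed in place of 302 past 1.5-fold, and 149 without the 4 libraries high in the unnamed gene; leaving out 1 library gave 183 to 256. Genes apart from all 3 groups were 48 by DESeq2, and 3 to 11 with 1 library left out. Against the acetate-treated wild type, 78 genes were called with library totals and no TMM, 16 with only the 8 libraries compared, 234 with replicates 1 and 2 set against 3 and 4 in the model, 535 without the 4 libraries and 831 by DESeq2, and 21 to 661 with 1 library left out. The cause was not tested. Of the 108 named genes 101 were called and 94 kept the call under every alternative. Pdha1, not called, changed sign: -0.0021 with no filter, -0.0026 with only the 8 libraries compared, -0.0434 without the 4 libraries and from -0.0272 to 0.0351 with 1 library left out, below 0 without WT untreated 1 (-0.0272) or 3 (-0.0088) and without KO acetate 1 (-0.0237) or 2 (-0.0122). A replicate block gave 4401 genes against the untreated wild type, 3880 of them among the 3954, with 7 genes apart from all 3 groups, 408 against the acetate-treated wild type and 10 p53 targets lower. Treated knockout and untreated wild-type libraries with one number did not deviate together (correlations from -0.083 to 0.050, and 0 of 4 numbers correlated best with their own). Other pairs of groups were not checked, among them treated and untreated cells of the same genotype. The main fit did not pair the libraries, and whether the numbers mark pairs is not known. At this depth genes under 1 CPM had a median SE of 0.45 on the log2 scale, against 0.07 at 100 CPM and over.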
